A study of Mus musculus with 6 samples.

Results

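The genes described here are regulators and transcriptional targets of p53, measured in carcinogen-treated mouse liver with and without ErbB4. The list names 32 known members of the pathway, chosen with earlier results of these data known. Of these, 30 were measured by a probe set with 1 gene symbol in the platform annotation, out of 22180 genes measured in that way. Trp53 itself and the death effector gene Bax were not analysed here. The measured members are the p53 relatives Trp63 and Trp73, 3 negative regulators of p53, 7 targets that act on the cell cycle and growth, 11 that act on apoptosis and survival, and 7 that act on metabolism and stress.

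Whole liver tissue was profiled on 1 whole-transcript array per mouse, from 3 ErbB4-/- mice and 3 wild-type control mice, all C57BL/6J by their strain label. ErbB4 is a cell surface tyrosine kinase related to the EGF receptor, with neuregulins among its ligands. The ErbB4-/- mice lack it in the whole body and carry a transgene that overexpresses it in the heart, which rescues them from death as embryos, and the line was backcrossed to C57BL/6J. Thus loss of the receptor, the transgene and other features of the line cannot be told apart. All 6 mice, controls included, were injected once, at postnatal day 14, with DEN, the usual short name of diethylnitrosamine, an alkylating carcinogen. By the treatment protocol every mouse was dissected after 32 weeks, whereas the treatment characteristic gives 35, 36 and 37 weeks for ErbB4-/- replicates 1 to 3 and 32, 33 and 34 weeks for control replicates 1 to 3. Neither the sex of the mice nor whether tumour tissue was sampled is stated in the labels. By the series' design text the 3 samples of each group are biological replicates.

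p53 is a transcription factor that DNA damage and other stresses stabilise. It binds response elements built of 2 copies of a 10-base half-site and induces genes that stop the cell cycle, start apoptosis, repair DNA or alter metabolism. Mdm2, its ubiquitin ligase, and the related Mdm4 hold it in check, and because Mdm2 is itself a target of p53 they form a feedback loop. In hepatocytes, DEN is activated by cytochrome P450 enzymes to a metabolite that alkylates DNA. Several of the targets, among them Btg2, Plk3, Cdkn1a and Ddit4, are also induced by growth factors, hormones or other stresses without p53.

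Values are on a log2 scale, 1 per probe set and array, and differences are ErbB4-/- minus control with the standard error (SE) of a limma fit over all 22180 genes. Array medians lay between 4.83 and 4.86 and correlations between arrays, across probe sets, between 0.975 and 0.986, and the small number of arrays limits the precision. Hepatocyte genes had mean levels of 12.36 to 12.43 in ErbB4-/- arrays and 12.36 to 12.47 in control arrays, the high signal that a liver sample should give. Erbb4 measured 5.24 ± 0.44 in ErbB4-/- liver and 5.52 ± 0.18 in control liver (SD, n = 3 each), with overlapping groups; what part of the transcript the probe set reads is not known here, so it does not check the labels. One array of each group stood apart. ErbB4-/- replicate 3 lay farthest out on the first principal component over all genes, and control replicate 1 differed from all other arrays in most sex-biased liver genes, in both directions. Hsd3b5, a male-biased gene, measured 8.70 to 9.88 on the ErbB4-/- arrays, against 2.52 in control replicate 1 and 9.33 and 9.83 on the other control arrays. Cyp2b9, a female-biased gene, measured 8.16 to 8.33 on the ErbB4-/- arrays, against 12.59 in control replicate 1 and 7.84 and 8.46 on the other control arrays. Cyp2a4 and Sult2a1 of the same list were not highest in control replicate 1.

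No p53 gene passed the test at an adjusted p under 0.05 over all genes, where 1 gene in all passed, 0.00451% of the genes tested. The members' adjusted p-values (limma, Benjamini-Hochberg) lay between 0.760 and 0.941. At an unadjusted p under 0.05 there were 3 members of 30, the kinase gene Plk3, lower, and the survival gene Triap1 and the receptor gene Eda2r, both higher. That is 10% of the members, against 5.72% of all genes, of which 2.77% were higher and 2.94% lower. The ErbB4-/- and control arrays did not overlap for 5 members, Btg2 and Plk3 with lower values and Triap1, Sesn3 and Eda2r with higher ones, which is 16.7% of the members, against 8.33% of all genes (4.52% higher and 3.81% lower). Differences of at least 2-fold were found for Btg2, Plk3 and Cdkn1a, all lower in ErbB4-/- liver, which is 10% of the members against 0.6% of all genes in either direction and 0.514% in this one. The median difference of the 30 members was -0.05 and that of all genes 0.01, with 12 members higher and 18 lower, that is 40% and 60%, against 55.1% and 44.9% of all genes. Of the members, 24 of 30 differed by less than 0.25, and for 23 of 30 the whole 95% interval lay within 1.5-fold of no difference. The median absolute difference was 0.12 for the members and 0.09 for all genes. In level, 7 members lay below the median gene, where a small difference can be background.

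**Figure D1:**
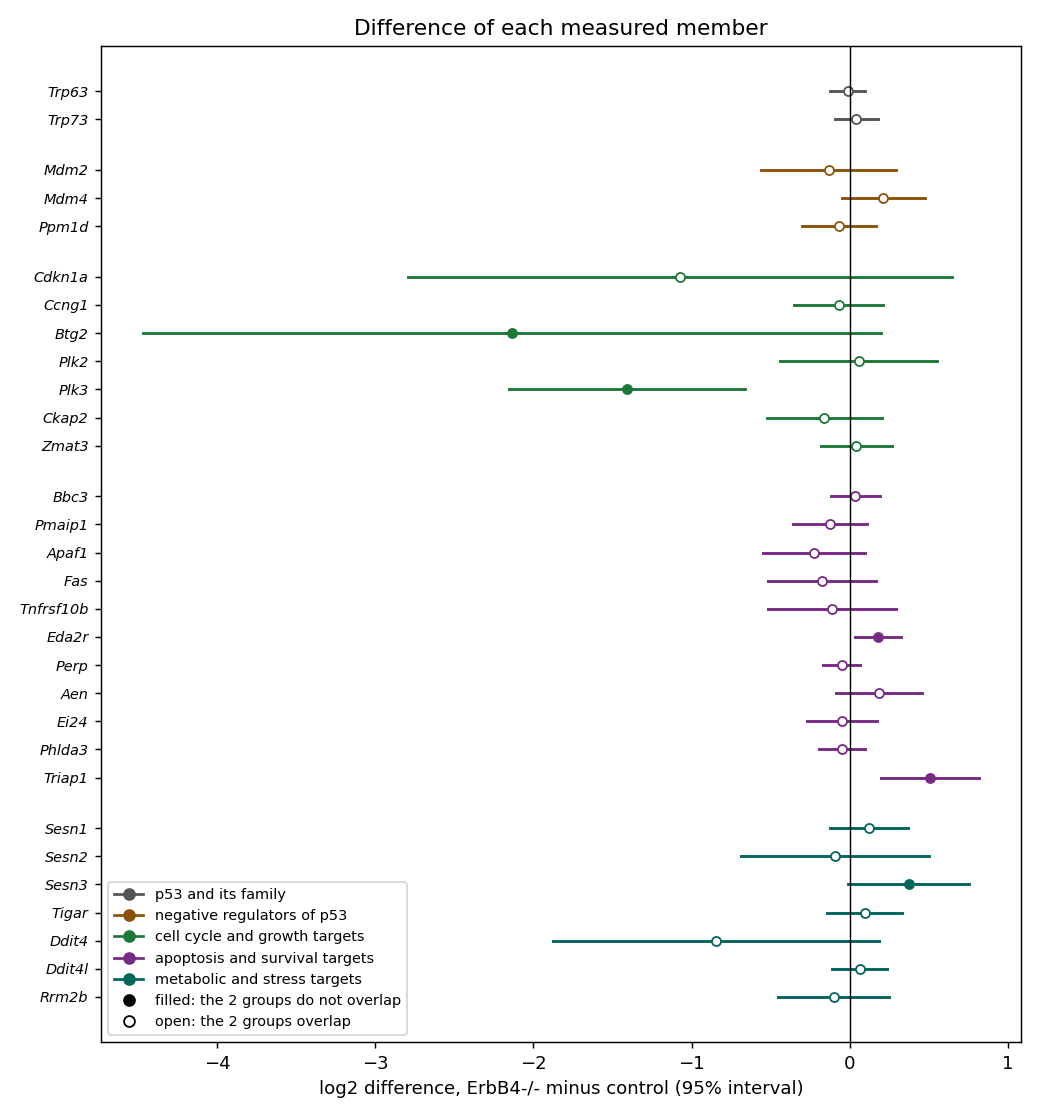
Log2 difference (ErbB4-/- minus control, x axis) of each of the 30 measured members, grouped by role from top to bottom, with its 95% interval from limma; filled points mark members whose 3 ErbB4-/- arrays do not overlap the 3 control arrays. Plk3, Triap1 and Eda2r have intervals that leave out 0, and the widest interval is that of Btg2, from -4.47 to 0.20.

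The sequence around the starts of these genes was examined because p53 response elements define the pathway. RefSeq promoter windows (GRCm38.p6, 250 bases before to 50 bases after each start) were at hand for 26 of the 32 genes. A p53 half-site was searched as the exact 10-base consensus by its usual definition, which reads the same on both strands. It was present in a window of 11 of 26 members (42.3%), against 9.55% of 27025 genes. Those 11 include Trp53 and Bax, whose expression was not analysed here. The cAMP response element TGACGTCA, a site of CREB-type factors through which hormones and stress can induce early genes, was present in 3 of 26 members (11.5%), against 2.03% of genes, and the CArG box of serum response factor in 1 of 26 members, against 1.81% of genes. Both of these also read the same on both strands, and neither overlaps a half-site in any member. A match describes letters and not binding. The stretches with half-sites are shown for 3 core targets, with the half-sites in capitals. They lie on chr17:29090892-29090951 (plus strand) for Cdkn1a, chr10:117710910-117710969 (minus strand) for Mdm2 and chr11:40755437-40755496 (minus strand) for Ccng1, all before the annotated start. Cdkn1a has 2 half-sites in 1 stretch, ahead of an alternative start that lies 2790 bases upstream of its other start. Their first bases lie at -73 and -51 from that alternative start, so these 2 matches do not adjoin. Only exact matches are in capitals. The letters right after the second match, tgacatgttc, miss the consensus only at their first letter and so stay in lower case.
Cdkn1a: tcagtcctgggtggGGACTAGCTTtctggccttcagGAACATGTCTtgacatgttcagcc
Mdm2: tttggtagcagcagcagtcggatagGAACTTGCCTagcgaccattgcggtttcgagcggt
Ccng1: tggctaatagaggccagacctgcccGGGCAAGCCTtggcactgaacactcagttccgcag

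The 3 members with a cAMP response element are shown next, with that element in capitals, because Btg2 has the largest difference of the list while Plk2 and Ppm1d carry the same 8 letters. The stretches lie on chr1:134079288-134079347 (minus strand) for Btg2, chr13:110394956-110395015 (plus strand) for Plk2 and chr11:85311143-85311202 (plus strand) for Ppm1d.
Btg2: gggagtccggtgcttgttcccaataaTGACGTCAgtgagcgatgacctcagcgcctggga
Plk2: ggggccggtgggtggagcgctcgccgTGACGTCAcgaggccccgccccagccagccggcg
Ppm1d: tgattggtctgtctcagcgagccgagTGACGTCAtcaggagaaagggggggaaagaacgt
Ppm1d also has a half-site in its window, before the stretch shown. The 3 genes with the cAMP response element differed by -2.13 (Btg2), 0.06 (Plk2) and -0.07 (Ppm1d). The part of the element in these differences was not tested. Of the other targets with half-sites above, Cdkn1a differed by -1.07, Mdm2 by -0.13 and Ccng1 by -0.07. Of the members whose groups did not overlap, Plk3, Triap1, Sesn3 and Eda2r had none of the 3 motifs in their windows.

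The regulators of p53 all had overlapping groups. Mdm2 measured 8.27, 8.07 and 7.65 in ErbB4-/- replicates 1 to 3 and 7.998, 8.14 and 8.27 in control replicates 1 to 3. The groups overlapped, with the lowest value in ErbB4-/- replicate 3. The difference was -0.13 (SE 0.17, 95% interval -0.56 to 0.29, limma adjusted p = 0.823), and it was 0.039 without ErbB4-/- replicate 3 and 0.13 with the week from the treatment characteristic as a covariate. Mdm4, which binds p53 and blocks its activity, averaged 8.12 ± 0.16 in ErbB4-/- liver and 7.91 ± 0.12 in control liver, a difference of 0.21 that turned to -0.091 with the week covariate. In all, 10 of the 30 members had the opposite sign with that covariate. The weeks given for the groups do not overlap, so week and genotype are confounded and the fit with week is less precise. For Mdm2 the SE was 0.37 with the week and 0.17 without it. Ppm1d, the phosphatase Wip1 that reverses the phosphorylation of p53 and of its kinases, differed by -0.07. Trp63 and Trp73, which encode p53-like factors of epithelia and neural tissue, differed by -0.01 and 0.04, with 1 value shared by 5 of the 6 arrays for each.

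Targets of the cell cycle and growth held the 3 differences past 2-fold. Btg2, an antiproliferative gene of the BTG/TOB family, measured 9.58, 9.38 and 6.23 in ErbB4-/- liver and 11.01, 10.20 and 10.38 in control liver. All 3 ErbB4-/- arrays lay below all controls, 2 of them by less than 1 log2 unit from the lowest control and ErbB4-/- replicate 3 far below both groups. The means were 8.40 ± 1.88 in ErbB4-/- liver and 10.53 ± 0.43 in control liver, a difference of -2.13 (SE 0.94, 95% interval -4.47 to 0.20, limma adjusted p = 0.760). Without ErbB4-/- replicate 3 the difference was -1.05, and with the week covariate it turned to 0.85, with an SE of 1.47.

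Plk3, a polo-like kinase of the stress and DNA damage response, measured 8.12, 7.95 and 8.93 in ErbB4-/- liver and 9.98, 9.38 and 9.87 in control liver. The groups were separate, and here ErbB4-/- replicate 3 was the highest of its group. The difference was -1.41 (SE 0.30, 95% interval -2.15 to -0.66), a 2.65-fold lower value in ErbB4-/- liver, with an unadjusted p of 0.00399 that did not pass over all genes (limma adjusted p = 0.760). Leaving out 1 array at a time gave -1.70 to -1.22, and the week covariate gave -1.93 (SE 0.63).

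Cdkn1a, which encodes the cyclin-dependent kinase inhibitor p21 and is the best known arrest gene of p53, measured 7.50, 7.99 and 6.50 in ErbB4-/- liver and 7.36, 8.16 and 9.71 in control liver. The groups overlapped: control replicate 1 lay below 2 of the ErbB4-/- arrays, and control replicate 3 lay far above all other arrays. The means were 7.33 ± 0.76 in ErbB4-/- liver and 8.41 ± 1.19 in control liver, a difference of -1.07 (SE 0.69, 95% interval -2.79 to 0.64, limma adjusted p = 0.760). Without control replicate 3 it was -0.42, without ErbB4-/- replicate 3 it was -0.66, and with the week covariate it was -2.09 (SE 1.49).

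Other genes of the same role stayed closer. Ccng1, the cyclin G1 gene, one of the most regular p53 targets, measured 8.84, 8.70 and 9.06 in ErbB4-/- liver and 9.06, 8.83 and 8.92 in control liver. The groups overlapped almost fully, with a difference of -0.07 (95% interval -0.35 to 0.21, limma adjusted p = 0.858). Plk2, the polo-like kinase most closely related to Plk3, averaged 7.35 ± 0.34 in ErbB4-/- liver and 7.30 ± 0.21 in control liver, a difference of 0.06. Zmat3, an RNA-binding zinc finger gene, differed by 0.04, and Ckap2, a spindle protein gene, by -0.16, with values of 3.63 to 3.67 on the ErbB4-/- arrays, against 4.14 in control replicate 1 and 3.64 on the other 2 controls. Ckap2 is also a gene of dividing cells, and 16 measured proliferation genes had mean levels of 4.85 to 4.90 in ErbB4-/- arrays and 4.92 to 4.96 in control arrays, whose part in the Ckap2 difference was not tested.

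**Figure D2:**
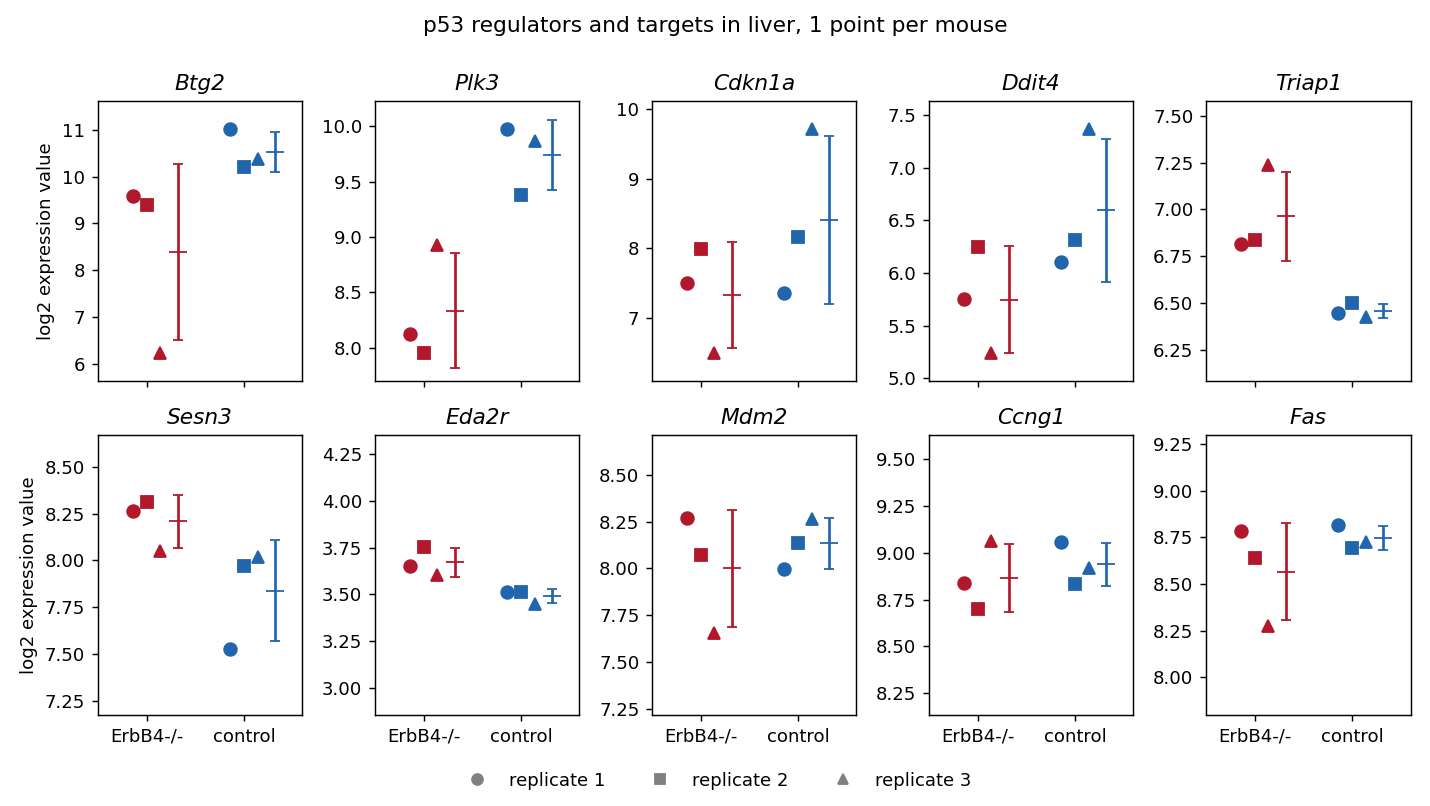
Log2 value (y axis) of 10 members in each liver, with ErbB4-/- mice left and control mice right, marker shape giving the replicate number and the bar the mean ± SD of the 3 arrays; each panel spans at least 1.5 log2 units. Btg2 and Plk3 lie lower and Triap1, Sesn3 and Eda2r higher in all 3 ErbB4-/- livers, while Cdkn1a, Ddit4, Mdm2, Ccng1 and Fas overlap.

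Among the 11 apoptosis and survival targets, 4 had higher and 7 lower means in ErbB4-/- liver, and differences ran from -0.23 to 0.51. Triap1, a small mitochondrial protein that restrains apoptosis, measured 6.82, 6.84 and 7.24 in ErbB4-/- liver and 6.45, 6.50 and 6.43 in control liver. The 3 ErbB4-/- arrays all lay above the controls, which were close together. The difference was 0.51 (SE 0.12, 95% interval 0.20 to 0.81), a 1.42-fold higher value, with an unadjusted p of 0.0075 that did not pass over all genes (limma adjusted p = 0.760). It was 0.37 without ErbB4-/- replicate 3 and 0.21 with the week covariate.

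Fas, the receptor of Fas ligand, measured 8.78, 8.64 and 8.28 in ErbB4-/- liver and 8.82, 8.70 and 8.73 in control liver. The groups overlapped and the lowest array was ErbB4-/- replicate 3. The difference of -0.18 (95% interval -0.52 to 0.16, limma adjusted p = 0.763) was -0.034 without ErbB4-/- replicate 3, 0.0014 without both that array and control replicate 1, and 0.27 with the week covariate. Tnfrsf10b, the TRAIL receptor of the mouse, averaged 3.89 ± 0.20 in ErbB4-/- liver and 4.005 ± 0.25 in control liver, a low signal on these arrays.

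Eda2r, a receptor of the tumour necrosis factor family that binds ectodysplasin A2, measured 3.65, 3.76 and 3.61 in ErbB4-/- liver and 3.51, 3.51 and 3.45 in control liver. All ErbB4-/- arrays were above all controls, by a small step at low signal, where a log2 value can be background. The difference was 0.18 (SE 0.06, 95% interval 0.03 to 0.33, unadjusted p = 0.0253, limma adjusted p = 0.760).

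No other gene of this role had separate groups. Bbc3 and Pmaip1, the BH3-only genes Puma and Noxa that free the cell death effectors, differed by 0.04 and -0.12, and Apaf1, the scaffold of the apoptosome, by -0.23. Perp, a desmosome and tetraspan membrane gene, differed by -0.05, with a 95% interval of only -0.17 to 0.07. Aen, a nuclease gene of apoptosis, differed by 0.18, Ei24, a membrane protein gene of the endoplasmic reticulum, by -0.05, and Phlda3, which represses the kinase Akt, by -0.05. The Phlda3 value rests on 1 array, since the 3 ErbB4-/- arrays and 2 of the controls shared a value of 5.38 while control replicate 1 measured 5.53.

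Of the 7 metabolic and stress targets, 4 had higher and 3 lower means in ErbB4-/- liver. The sestrins, which restrain the growth kinase complex mTORC1 under amino acid shortage and oxidative stress, had differences of both signs. Sesn3 measured 8.26, 8.32 and 8.05 in ErbB4-/- liver and 7.53, 7.97 and 8.02 in control liver. The groups were separate, but only by the small gap between ErbB4-/- replicate 3 and control replicate 3. The difference was 0.37 (SE 0.15, 95% interval -0.01 to 0.76, limma adjusted p = 0.760), 0.22 without control replicate 1, which stood apart in sex-biased genes, and 0.16 with the week covariate. Sesn1 differed by 0.12 and Sesn2 by -0.09, each with overlapping groups.

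Ddit4, known as REDD1 and an inhibitor of mTORC1 induced by low oxygen, glucocorticoids and DNA damage, is given in full although the rule for such genes leaves it out, a choice made after its values were seen. It measured 5.75, 6.25 and 5.24 in ErbB4-/- liver and 6.10, 6.31 and 7.37 in control liver. The lowest array was ErbB4-/- replicate 3 and the highest control replicate 3, as for Cdkn1a, and the groups overlapped. The difference was -0.85 (SE 0.41, 95% interval -1.87 to 0.18, limma adjusted p = 0.760), -0.46 without control replicate 3 and -1.41 with the week covariate. Its paralogue Ddit4l differed by 0.06. Tigar, a phosphatase that lowers glycolytic flux, differed by 0.09, and Rrm2b, the p53-induced subunit of ribonucleotide reductase that supplies nucleotides for repair, by -0.10.

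The spread among members came from a few genes and a few arrays. ErbB4-/- replicate 3 held the lowest value of 10 members and the highest of 8, where it held the lowest value of 20% and the highest of 23.6% of all genes. Control replicates 1 and 3 each held the highest value of 7 members, against 16% and 12.6% of all genes, and control replicate 2 that of 1 member, against 12.4% of all genes. The SD between replicates was larger in ErbB4-/- liver for 16 members and larger in control liver for 14. Of the 30 members, 16 (53.3%) had an identical deposited value on at least 2 arrays, as did 57.5% of all genes, so that a replicate SD can be 0, as it was in ErbB4-/- liver for Trp63, Trp73 and Phlda3. For Trp63, whose SD was 0 in ErbB4-/- liver and 0.02 in control liver, the error in limma comes mainly from the spread of the other genes.

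**Figure D3:**
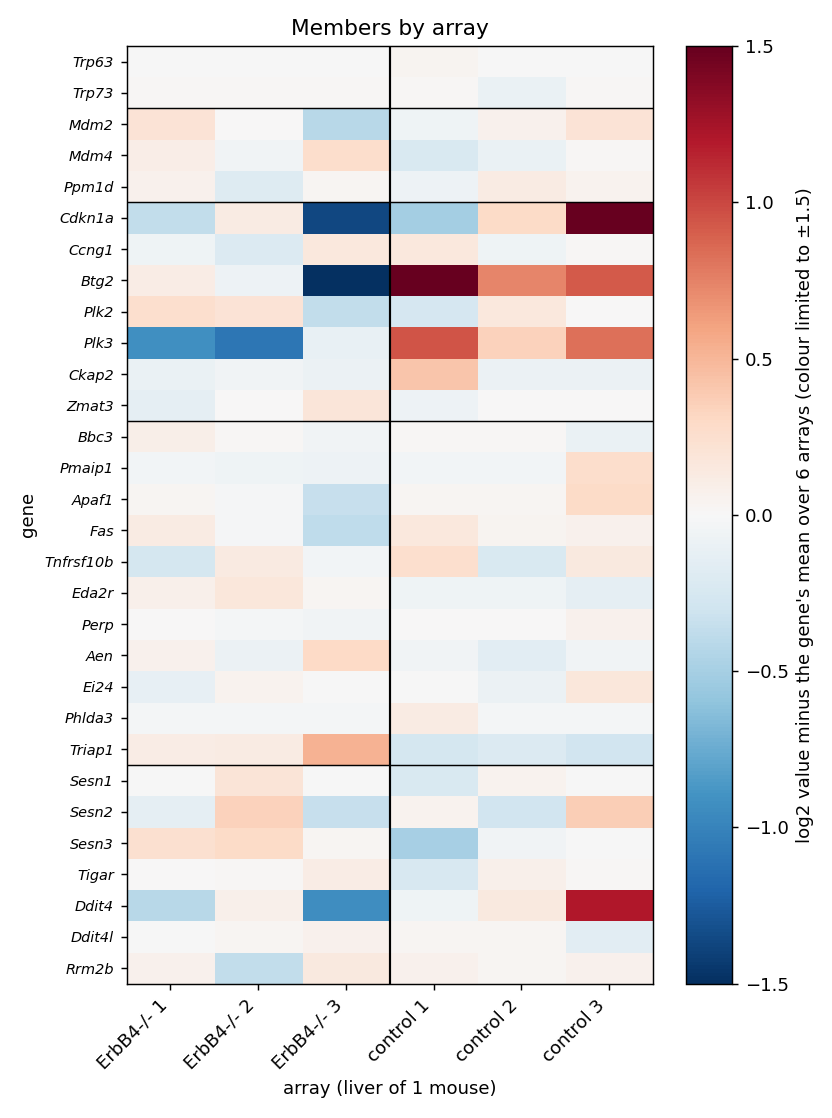
Colour shows the log2 value of each of the 30 measured members (rows, in blocks by role) minus its own mean over the 6 arrays, with the 3 ErbB4-/- arrays left of the line and the 3 control arrays right of it; colours are limited to 1.5 on either side. The strongest colours belong to Btg2, Plk3, Cdkn1a and Ddit4: ErbB4-/- replicate 3 is the lowest array for all of these but Plk3, and the highest is control replicate 1 for Btg2 and Plk3 and control replicate 3 for Cdkn1a and Ddit4.

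Btg2 and Plk3 are also early response genes, so genes of that class are given beside them. Of 19 immediate early genes, 17 had lower means in ErbB4-/- liver, none passed the test over all genes, and their median difference was -0.96, or -0.42 without ErbB4-/- replicate 3. Their mean level was 7.88, 7.67 and 6.35 in ErbB4-/- replicates 1 to 3 and 8.71, 8.12 and 7.98 in control replicates 1 to 3, so that the arrays at both ends, ErbB4-/- replicate 3 and control replicate 1, were those of Btg2. Fos, the AP-1 subunit, measured 9.66, 8.99 and 5.52 in ErbB4-/- liver and 10.74, 9.88 and 9.84 in control liver. Plk3 had its highest value in the same control array but did not share the low value of ErbB4-/- replicate 3. The part of this gene class in the Btg2 difference was not tested.

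Cdkn1a and Ddit4 followed a different order of arrays. Both were highest in control replicate 3, next highest in control replicate 2 and lowest in ErbB4-/- replicate 3, whereas the immediate early genes had their lowest control mean in replicate 3. Genes that respond to glucocorticoids, which also induce Ddit4, had lower means in ErbB4-/- liver for 9 of 10, none of which passed, with a mean level of 8.04, 8.38 and 8.61 in ErbB4-/- liver and 9.26, 8.74 and 9.30 in control liver. Fkbp5, a cochaperone of the glucocorticoid receptor, differed by -0.89, and Tsc22d3, the only higher gene of the list, by 0.24. Sgk1 and Zbtb16 of this list were lowest in ErbB4-/- replicate 3. For the mean of the 10 genes, that array, the lowest of Cdkn1a and Ddit4, was the highest of its group. The part of these genes in the Ddit4 difference was not tested.

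**Figure D4:**
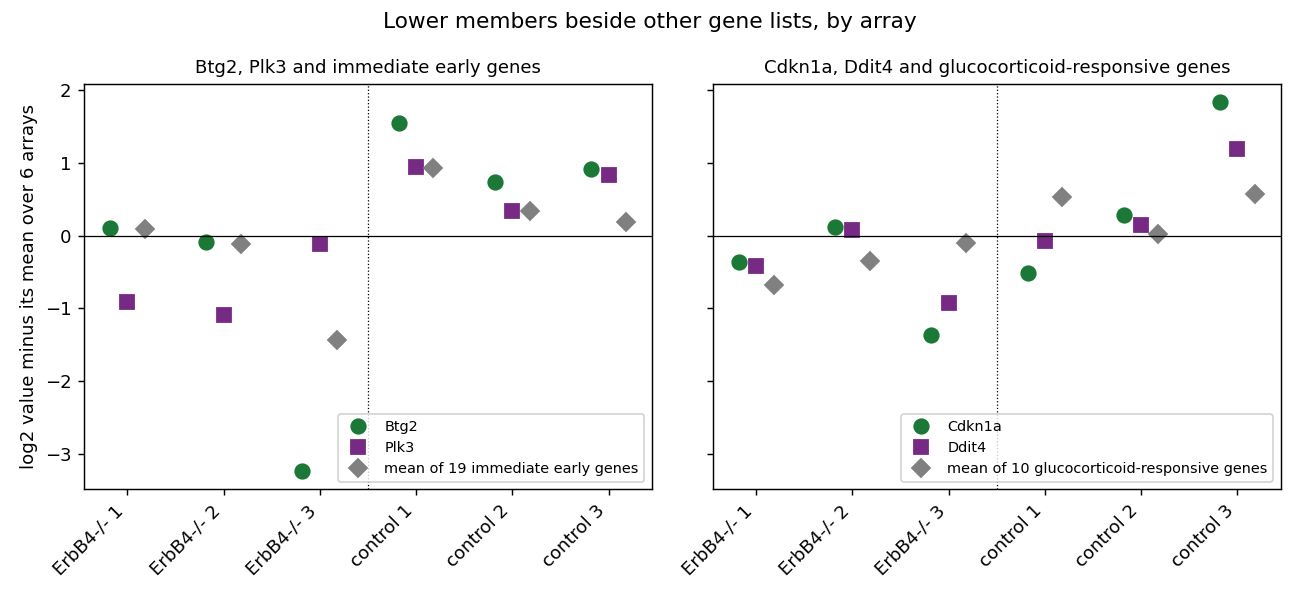
Log2 value minus its mean over the 6 arrays (y axis) for Btg2 and Plk3 beside the mean of 19 immediate early genes (left panel), and for Cdkn1a and Ddit4 beside the mean of 10 glucocorticoid-responsive genes (right panel), with the ErbB4-/- arrays left of the dotted line and the control arrays right of it. Btg2 is lowest in ErbB4-/- replicate 3 and highest in control replicate 1 as the immediate early genes are, and Cdkn1a and Ddit4 are both highest in control replicate 3.

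Most markers of other liver cell types had lower means in ErbB4-/- liver, as did 44.9% of all genes. Of the cell type lists given here, only those of macrophages and neutrophils had mean levels that did not overlap between the groups. The proliferation, immediate early and glucocorticoid-responsive genes above also had mean levels without overlap, lower in ErbB4-/- liver. Their highest ErbB4-/- arrays were at 4.90, 7.88 and 8.61, against lowest control arrays of 4.92, 7.98 and 8.74. In whole tissue, fewer cells of a type and less RNA per cell cannot be told apart. All 16 macrophage markers had lower means in ErbB4-/- liver, with mean levels of 7.36 to 8.14 in ErbB4-/- arrays and 8.51 to 8.78 in control arrays. All 12 neutrophil markers did too, with 4.64 to 4.997 in ErbB4-/- arrays and 5.29 to 7.19 in control arrays. Of 14 endothelial markers 13 were lower, with 6.88 to 8.001 in ErbB4-/- arrays and 7.97 to 8.37 in control arrays. Stellate cell markers, lower for 12 of 13, had 6.60 to 7.24 in ErbB4-/- arrays and 7.07 to 7.15 in control arrays. B and plasma cell markers were lower for 7 of 10, with 5.87 to 6.24 in ErbB4-/- arrays and 6.21 to 6.41 in control arrays. T and NK cell markers were lower for 10 of 13, with 4.58 to 4.66 in ErbB4-/- arrays and 4.62 to 4.76 in control arrays, and cholangiocyte markers for 4 of 6, with 4.73 to 4.81 in ErbB4-/- arrays and 4.74 to 4.84 in control arrays. No marker was listed at 0, none passed the test, and their part in the differences of Btg2, Plk3, Cdkn1a and Ddit4 was not tested.

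Genes around the pathway gave no call either. All 20 listed kinases, cofactors and ligases of p53 were measured, 11 with higher and 9 with lower means in ErbB4-/- liver, and none passed. Their median difference was 0.00, with a range of -0.30 to 0.14, and no gene of the list had groups without overlap. The smallest p-values belonged to Rchy1, the p53 ubiquitin ligase Pirh2, with a difference of -0.30, to the repair mediator gene Trp53bp1 with 0.14, to Usp7, the protease that removes ubiquitin from p53 and Mdm2, with 0.07, and to the p53 kinase gene Hipk2 with 0.08 (limma adjusted p of at least 0.760 for each).

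Of 30 further p53 targets, 23 were measured, 15 with higher and 8 with lower means in ErbB4-/- liver, and none passed. The median difference was 0.02. Trp53inp1, a nuclear protein gene of p53-driven apoptosis and autophagy, measured 8.77, 9.50 and 9.18 in ErbB4-/- liver and 10.63, 10.21 and 11.01 in control liver, separate groups with a difference of -1.47 (SE 0.27, limma adjusted p = 0.760). As for Cdkn1a and Ddit4, the highest array was control replicate 3, but the lowest was ErbB4-/- replicate 1. The next genes by p-value were the peptide transporter gene Tap1 with 0.46, the membrane protein gene Trp53i11 with -0.58 and the reductase gene Dcxr with 0.16.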

How the data were processed

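The deposited table gives log2 values, 1 per probe set and array, processed by the authors; their background correction, normalization and summarisation are not stated in the labels. That the base is 2 was read from the range of the values, whose maximum is 14.37. RNA was extracted with Trizol and labelled with whole-transcript kits, per the labels' protocols. Of 41345 probe sets, 23521 have 1 gene symbol in the platform annotation; the one with the highest mean stood for each of 22180 genes. Dim probe sets were kept. Differences were fitted with limma 3.58.1 (lmFit, eBayes; R 4.3.3) as a two-sided test with genotype as the only term, adjusted by Benjamini-Hochberg over all genes. A permutation test of 3 against 3 arrays cannot go below p = 0.10, so none was used. The fit was tested on simulated data.

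The members, the 2 lists of other pathway genes, the 12 marker lists and the alternatives were chosen with earlier results of these data known. Values per array are given for members without overlap between groups or with an unadjusted p under 0.05, and for Mdm2, Cdkn1a, Ccng1 and Fas; the 4 genes with the smallest p of each pathway list are named. Ddit4 was added after its values were seen. Promoters are from RefSeq (GRCm38.p6); the build of the array design is not stated in the labels. Figures were drawn with matplotlib 3.10.9.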

Additional observations from a re-analysis of the deposited data

How the results depend on the processing

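Under 16 alternative fits no p53 gene passed an adjusted p of 0.05, and none passed at 0.01 or 0.1. The 1 gene called over all genes was lost (0 genes) with all rows tested, with the replicate block, with the week covariate, at a threshold of 0.01, without control replicate 1 and ErbB4-/- replicate 3 together, and on leaving out any 1 array (0 to 0). Members without overlap between groups numbered 8 after quantile normalization, 8 without both of those arrays, and 6 to 9 on leaving out 1 array, where fewer arrays make separation easier. The share of all genes without overlap was not computed under these alternatives, so these counts have no background to be read against. The members' median difference was -0.066 among genes at or above the median level, -0.014 without both arrays, and -0.067 to -0.015 on leaving out 1 array. With the week covariate the sign turned for Trp63 (0.018), Mdm2 (0.13), Mdm4 (-0.091), Btg2 (0.85), Ckap2 (0.20), Zmat3 (-0.26), Fas (0.27), Phlda3 (0.061), Sesn1 (-0.048) and Tigar (-0.18), and with array weights for Zmat3 (-0.0045); the cause was not tested. Leaving out 1 array, or the 2 above together, turned the sign of small differences, with ranges of -0.27 to 0.039 for Mdm2, -0.15 to 0.013 for Ppm1d, -0.17 to 0.013 for Ccng1, -0.058 to 0.25 for Plk2, -0.24 to 0.0057 for Ckap2, -0.070 to 0.12 for Zmat3, -0.0040 to 0.089 for Bbc3, -0.29 to 0.0014 for Fas, -0.11 to 0.022 for Ei24, -0.29 to 0.071 for Sesn2, -0.036 to 0.16 for Tigar and -0.20 to 0.055 for Rrm2b. Plk3, Cdkn1a and Ddit4 were lower and Triap1, Eda2r and Sesn3 higher in every alternative in which they were tested. The sign also never turned for Trp73, Pmaip1, Apaf1, Tnfrsf10b, Perp, Aen and Ddit4l. A steady sign was thus not particular to the larger differences. Same-numbered arrays did not deviate together (correlations of -0.10, 0.03 and -0.05). With so few arrays, these values cannot show whether the replicate numbers pair the mice.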
